A study of Danio rerio with 9 samples.

Results

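Immediate early genes of the fos, egr and ier2 families, together with npas4a, were examined in whole larval zebrafish. The members were chosen by gene name, as rows of both deposited tables whose name was one of 10 symbols (fosaa, fosab, fosb, fosl1a, egr1, egr2a, egr3, ier2a, ier2b and npas4a). Of the 10 genes, 9 were in both tables, which share 19130 genes, and egr2a was not analysed here. Larvae were offspring of AB × Tübingen fish kept for 7 days in rearing medium with 0.1 µg/L PFNA (perfluorononanoic acid, a long-chain perfluoroalkyl acid), 10 µg/L PFNA or the 0.1% DMSO control. PFNA stocks were made in the same solvent, so both exposed groups also received DMSO. Each group had 3 libraries of polyadenylated RNA, and all 14 to 15 larvae of a beaker were pooled for each library, so that p-values measure the spread between pools. The question was whether the level of these transcripts differed with PFNA concentration.

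Immediate early genes are transcribed within minutes of a stimulus, through the action of proteins already present in the cell. Growth factor receptors and calcium entry reach them through the MAP kinase cascade, serum response factor and CREB, and the messages are short-lived. Fos proteins pair with Jun proteins as the transcription factor AP-1, Egr proteins are zinc finger transcription factors, and Ier2 proteins are small nuclear proteins. In rodent brain, Fos, Egr1 and Npas4 transcripts are widely used as marks of recent neuronal activity, with Npas4 the most restricted to neurons. In whole larvae the signal comes from every tissue, and fewer cells of a type and less RNA per cell cannot be told apart.

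Between 14491289 and 23963715 reads were recovered per library. In a principal component analysis of all genes, component 1 held 51.4% of the variance. The 10 µg/L libraries scored between 39.5 and 51.4 on it, and DMSO replicate 3 (41.9) and 0.1 µg/L replicate 2 (19.4) lay on the same side, apart from the other libraries of their groups (-68.7 to -31.1). DMSO replicates 1 and 2 each carried a first sequencing index that no other library had. For the members, most results that rest on these libraries are given with and without them. Counts of related genes and of markers are given with all libraries only.

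The members were counted from few to many reads. The fewest were the 11 to 109 reads per library of fosaa, followed by 34 to 98 for fosb, 30 to 250 for fosl1a and 51 to 169 for egr3. For the 5 other genes, the lowest count in any library was 288 reads, for ier2b. All 9 genes passed the minimum mean of 10 normalized counts in every comparison. A normalized count is the number of reads divided by a size factor for the library. Its level is comparable between libraries that were scaled together but not between genes. Each comparison has its own scaling, so the same pool has different normalized counts in different comparisons.

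**Figure D1:**
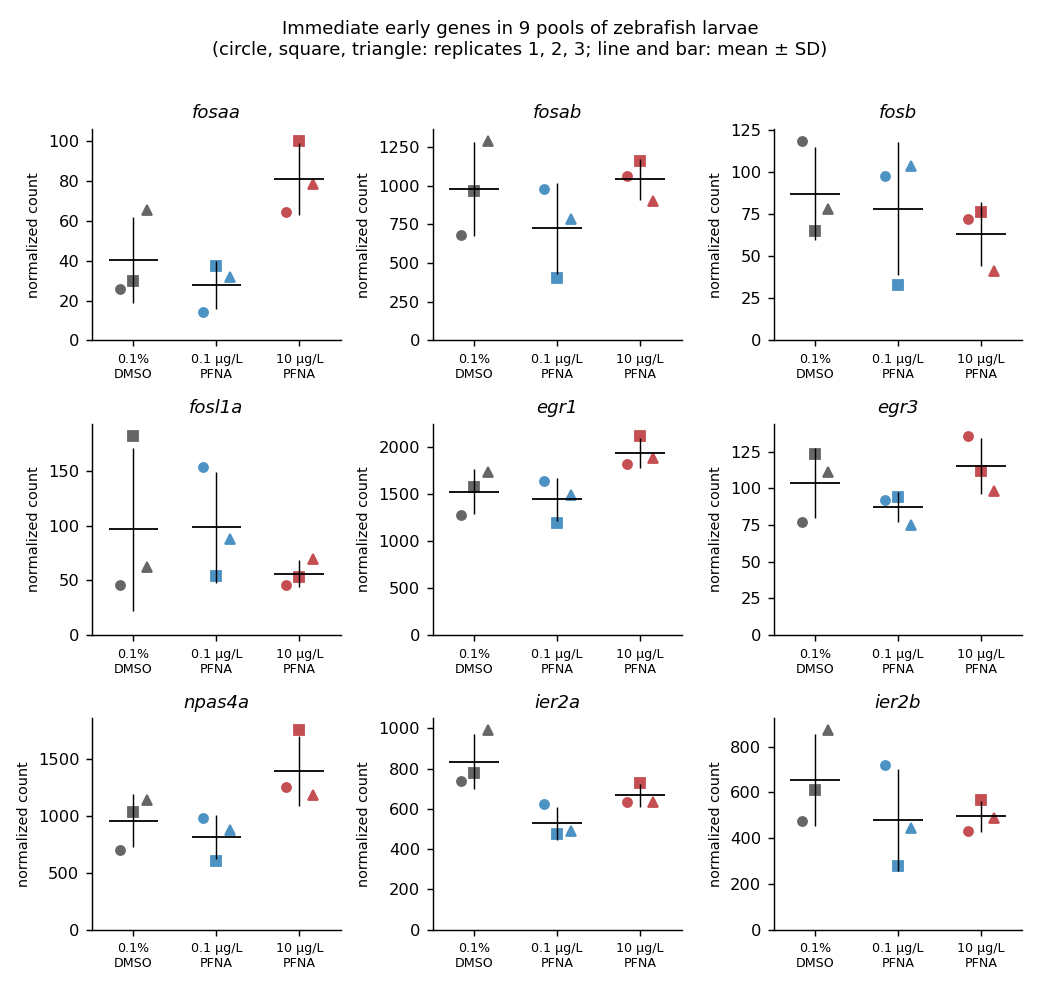
Normalized counts (linear axis from 0) of the 9 genes in DMSO pools and in pools at 0.1 and 10 µg/L PFNA, with all 9 libraries scaled together. Points are libraries, the horizontal line is the group mean and the vertical line is 1 SD; fosaa, egr1 and npas4a have their highest group mean at 10 µg/L, while ier2a is highest in DMSO.

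At 10 µg/L PFNA, the pattern was split within the set. Every pool was above every DMSO pool for egr1 and npas4a and below every DMSO pool for ier2a, and the pools of the other 6 genes overlapped, fosaa among them. Log2 fold changes were positive for 5 genes and negative for 4, with a median of 0.12 where the median of all genes was 0.01. The median of the members was -0.11 without DMSO replicate 1. None of these differences had an adjusted p under 0.05 by limma (range 0.291 to 0.858 over the 9 genes), where 0 of all 19610 genes tested did. Unadjusted p by limma was under 0.05 for 2 of the 9 genes, fosaa and npas4a, both higher. Of all genes, 7.91% passed as higher, 5.21% as lower and 13.1% in either direction. Libraries did not overlap for 3 of the 9 genes (2 above and 1 below DMSO), against 18.0% of all genes (9.76% above and 8.24% below). By edgeR and DESeq2, 0 members had an adjusted p under 0.05, where 0 of all genes did by edgeR and 1.17% by DESeq2. Each of these tools gave 2 members at an unadjusted p under 0.05, where 12.8% of all genes passed by edgeR and 12.3% by DESeq2. By limma, this number was 0 without 10 µg/L replicate 2, where 6.64% of all genes passed. It was 1 without DMSO replicate 2, where 8.89% of all genes passed.

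The fosaa transcript, from one of the zebrafish co-orthologs of FOS, had 68.7, 106 and 83.4 normalized counts in the 10 µg/L pools, against 27.8, 32.0 and 69.8 in the DMSO pools. The groups overlapped only through DMSO replicate 3. The log2 fold change, computed as all others here on log2 of the normalized count plus 1, was 1.08 (95% CI 0.25 to 1.90, limma adjusted p = 0.291). Without DMSO replicate 3 it was 1.48 with an adjusted p of 0.0129 by limma, where 11.2% of all genes passed that threshold in the same fit. With the first index as a covariate, which leaves DMSO replicate 3 as the sole control, the fosaa value was 0.28 (adjusted p = 0.827). The 5 libraries with the highest fosaa levels were the 5 with positive scores on component 1, and its part in the result was not tested.

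Its paralog fosab had 1131, 1232 and 960 normalized counts at 10 µg/L, against 738, 1034 and 1376 in DMSO. The exposed pools lay inside the range of the controls (log2 fold change 0.12, 95% CI -0.37 to 0.60). The sign turned in some settings, to -0.11 without DMSO replicate 1 and to -0.32 with the first index as a covariate.

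Lower mean levels at 10 µg/L were measured for fosb and fosl1a, which encode FosB and the Fos-like protein Fra-1. The fosb transcript averaged 67.2 ± 20.3 normalized counts at 10 µg/L and 93.4 ± 30.2 in DMSO (SD, n = 3 each), with a log2 fold change of -0.47 (95% CI -1.19 to 0.25). The fosl1a transcript averaged 59.8 ± 13.3 at 10 µg/L and 103 ± 79.8 in DMSO. Its control mean was set by DMSO replicate 2, which had 195 normalized counts where the other DMSO pools had 49.0 and 66.4, and without that pool the log2 fold change was 0.05 in place of -0.54.

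Of the egr genes, egr1 had 1930, 2248 and 1998 normalized counts at 10 µg/L, against 1368, 1677 and 1850 in DMSO. Every exposed pool was above every control pool. The log2 fold change was 0.34 (95% CI -0.01 to 0.69, limma adjusted p = 0.389). Without DMSO replicate 3 it was 0.44 (limma adjusted p = 0.0775), and with the first index as a covariate it was 0.15. For egr3, which belongs to the same zinc finger family, the groups overlapped, with 123 ± 20.0 normalized counts at 10 µg/L and 111 ± 25.2 in DMSO (SD, n = 3 each, log2 fold change 0.15, 95% CI -0.39 to 0.70).

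The npas4a transcript, whose rodent ortholog is induced by calcium entry in neurons, had 1328, 1855 and 1261 normalized counts at 10 µg/L. The DMSO pools had 753, 1102 and 1217, so that every exposed pool was above every control pool, by a narrow margin for 10 µg/L replicate 3. The log2 fold change was 0.54 (95% CI 0.06 to 1.02, limma adjusted p = 0.338). It was 0.33 without DMSO replicate 1, 0.37 without 10 µg/L replicate 2 and 0.26 with the first index as a covariate. Of 14 neuronal marker genes, 3 were higher and 11 lower at 10 µg/L than in DMSO, and 0 had an unadjusted p under 0.05.

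Both ier2 genes had lower means at 10 µg/L than in DMSO. The ier2a transcript had 674, 776 and 676 normalized counts at 10 µg/L, against 795, 830 and 1056 in DMSO. Every exposed pool was below every control pool, with a log2 fold change of -0.33 (95% CI -0.68 to 0.03, limma adjusted p = 0.416). The ier2b transcript averaged 526 ± 72.9 at 10 µg/L and 698 ± 212 in DMSO, with overlapping pools and a log2 fold change of -0.37 (95% CI -0.86 to 0.11). Without DMSO replicate 3, the highest control for both genes, the log2 fold changes were -0.20 for ier2a and -0.15 for ier2b. When the first index was a covariate, which sets the 3 exposed pools against that replicate alone, they were -0.58 for ier2a and -0.83 for ier2b.

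At 0.1 µg/L PFNA, 8 of the 9 genes had a negative log2 fold change against DMSO, with a median of -0.27, where the median of all 19065 genes tested was 0.00. The median of the members was -0.11 without 0.1 µg/L replicate 2, -0.16 without DMSO replicate 3, -0.50 without 0.1 µg/L replicate 3 and -0.52 when the first index was a covariate. The ier2a transcript was the one member with an unadjusted p under 0.05, where 0.813% of all genes passed as lower, 0.755% as higher and 1.57% in either direction. It was also the one member whose pools did not overlap, against 6.63% of all genes (2.98% below DMSO and 3.65% above). No member had an adjusted p under 0.05 by limma, edgeR or DESeq2, where 0 of all 19065 genes did by any of these tools. Each tool gave 1 member at an unadjusted p under 0.05, where 1.57% of all genes passed by limma, 1.63% by edgeR and 1.4% by DESeq2. Without 0.1 µg/L replicate 1, ier2b passed as well by limma and the number was 2, where 0.828% of all genes passed.

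The ier2a transcript had 595, 452 and 468 normalized counts in the 0.1 µg/L pools, against 700, 736 and 946 in the DMSO pools. The log2 fold change was -0.65 (95% CI -1.05 to -0.25, limma adjusted p = 0.9999). Leaving out each library in turn gave values between -0.77 and -0.52, each with an unadjusted p under 0.05 by limma. The value was -0.91 when the first index was a covariate, with DMSO replicate 3 as the sole control. ier2a was already known from an earlier analysis of these data to be low at this concentration, which makes it no independent observation.

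For ier2b the 0.1 µg/L pools had 685, 265 and 425 normalized counts, against 452, 579 and 832 in DMSO. Replicate 1 of the exposed pools lay within the control range and the other pools below it, and the log2 fold change was -0.50 (95% CI -1.25 to 0.25). It was -0.16 without 0.1 µg/L replicate 2, -0.84 without 0.1 µg/L replicate 1 and -0.26 without DMSO replicate 3. With the first index as a covariate, which leaves DMSO replicate 3 as the sole control, it was -0.97.

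The fosab transcript had 936, 388 and 750 normalized counts at 0.1 µg/L, against 650, 917 and 1233 in DMSO. The lowest of these, replicate 2, was below every other library, and without it the log2 fold change was -0.11 in place of -0.48. It was -0.25 without DMSO replicate 3, and -0.93 when the first index was a covariate, which leaves that replicate as the sole control. The fosaa transcript averaged 26.6 ± 11.6 at 0.1 µg/L and 38.4 ± 20.9 in DMSO, with a log2 fold change of -0.49 (95% CI -1.60 to 0.61). This difference was -0.09 without DMSO replicate 3, -0.09 without 0.1 µg/L replicate 1 and -1.31 when the first index was a covariate (limma adjusted p = 0.463).

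For the remaining members at 0.1 µg/L, the log2 fold changes were -0.27 for fosb, 0.17 for fosl1a, -0.08 for egr1, -0.23 for egr3 and -0.22 for npas4a. The egr1 transcript averaged 1376 ± 216 normalized counts at 0.1 µg/L and 1450 ± 229 in DMSO (SD, n = 3 each), and its 95% interval ran from -0.48 to 0.32. The npas4a transcript averaged 778 ± 183 at 0.1 µg/L and 911 ± 222 in DMSO, with an interval from -0.75 to 0.30.

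**Figure D2:**
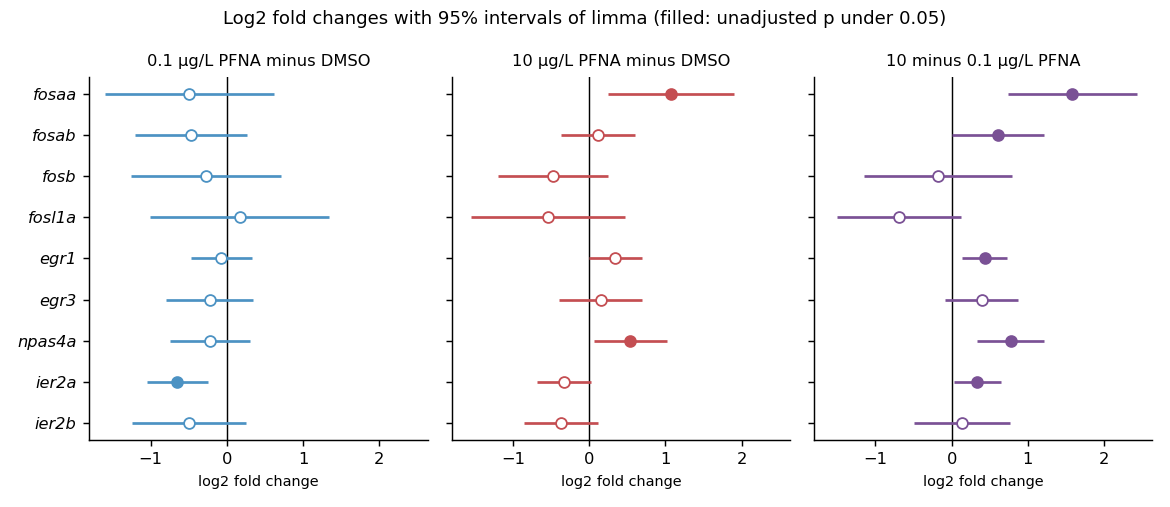
Log2 fold changes of the 9 genes (horizontal axis) with 95% intervals from limma, for each concentration minus DMSO and for 10 minus 0.1 µg/L PFNA. Filled points have an unadjusted p under 0.05, namely 1 gene at 0.1 µg/L, 2 genes at 10 µg/L and 5 genes between the concentrations; both comparisons with DMSO share the same control libraries.

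The concentrations were also compared with each other, on reads scaled together over all 9 libraries. Of the 9 genes, 7 were higher at 10 than at 0.1 µg/L, with a median log2 fold change of 0.39. Unadjusted p was under 0.05 for 5 of them, all higher (fosaa, fosab, egr1, ier2a and npas4a), where 14.2% of all 18965 genes passed as higher, 11.5% as lower and 25.7% in either direction. The pools of 5 genes did not overlap (fosaa, egr1, egr3, ier2a and npas4a), against 28.7% of all genes (14.9% higher and 13.9% lower). By limma and edgeR no member had an adjusted p under 0.05, where 0 of all 18965 genes did by either tool. The lowest limma value of the members, 0.0767, was also the lowest of all genes. By edgeR 4 members had an unadjusted p under 0.05, where 24.8% of all genes did. By DESeq2, fosaa (adjusted p = 0.00626) and npas4a (adjusted p = 0.00958) passed, where 8.84% of all genes did. The number at an unadjusted p under 0.05 by limma was 3 when 10 µg/L replicate 2, 10 µg/L replicate 3 or 0.1 µg/L replicate 3 was left out. In these fits 18.1%, 19.0% and 15.2% of all genes passed, in the same order. Without 0.1 µg/L replicate 2, fosaa, npas4a and fosl1a had an adjusted p under 0.05 by limma, with a log2 fold change of -1.05 for fosl1a (adjusted p = 0.0206), and 27.0% of all genes passed in that fit.

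The fosaa transcript had 64.7, 100.1 and 78.3 normalized counts at 10 µg/L, against 14.3, 37.5 and 31.9 at 0.1 µg/L. Its log2 fold change of 1.59 (95% CI 0.74 to 2.43, limma adjusted p = 0.0767) was the largest of the set. It lay between 1.18 and 1.85 when each library was left out in turn.

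For npas4a the 10 µg/L pools had 1250, 1747 and 1184 normalized counts, against 975, 602 and 870 at 0.1 µg/L. The log2 fold change was 0.78 (95% CI 0.34 to 1.22, limma adjusted p = 0.0789). Without 0.1 µg/L replicate 2, the lowest pool, it was 0.58 with an adjusted p of 0.0159 by limma, in the same fit in which 27.0% of all genes passed. Of the 14 neuronal markers, 13 were lower at 10 than at 0.1 µg/L, 9 of them with an unadjusted p under 0.05, where 11.5% of all genes passed as lower. Their summed level was between 55333 and 57228 normalized counts at 10 µg/L, between 58170 and 79206 at 0.1 µg/L, and between 43993 and 76641 in DMSO, and no neuronal marker was at 0 in any library. Hepatocyte markers were higher for 12 of 13 genes, 8 of them with an unadjusted p under 0.05 (median log2 fold change 0.79). Intestine markers were higher for 8 of 9, 3 of them with an unadjusted p under 0.05 (median 0.66), where 14.2% of all genes passed as higher. The 1 lower intestine marker also had an unadjusted p under 0.05, where 11.5% of all genes passed as lower. The part of these marker levels in the fold changes between the concentrations was not tested.

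The egr1 transcript had 1818, 2117 and 1876 normalized counts at 10 µg/L, against 1641, 1194 and 1492 at 0.1 µg/L, a log2 fold change of 0.43 (95% CI 0.14 to 0.73, limma adjusted p = 0.0940). The ier2a transcript had 635, 731 and 635 at 10 µg/L, against 623, 473 and 491 at 0.1 µg/L. The margin between the nearest ier2a pools was small, and the log2 fold change was 0.34 (95% CI 0.03 to 0.65, limma adjusted p = 0.158). The fosab fold change of 0.61 (limma adjusted p = 0.188) came with overlapping pools and was 0.24 without 0.1 µg/L replicate 2.

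By mean level over the 3 groups, fosaa, fosab, egr1, egr3 and npas4a were ordered 10 µg/L, DMSO, 0.1 µg/L from high to low. The DMSO and 0.1 µg/L pools, next to each other in this order, overlapped for all 5 genes, and the 10 µg/L and DMSO pools overlapped for fosaa, fosab and egr3 but not for egr1 and npas4a. The order was DMSO, 10 µg/L, 0.1 µg/L for ier2a, with no overlap between neighbours, and the same for ier2b, with overlap between all groups. For fosb the highest mean was in DMSO and the lowest at 10 µg/L, and for fosl1a the DMSO and 0.1 µg/L means (96.7 and 98.4 normalized counts) were close, with 56.2 at 10 µg/L.

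Levels of 2 genes within a library can be compared as reads without any scaling, and these ratios were chosen after the values had been seen, so no test was run. For each ier2a read there were 2.86, 2.90 and 2.96 egr1 reads in the 10 µg/L pools and 2.63, 2.52 and 3.04 in the 0.1 µg/L pools, against 1.72, 2.02 and 1.75 in the DMSO pools. Every exposed pool of either concentration was above every control pool. Of 36 gene pairs, 14 separated 10 µg/L from DMSO, and 1, this pair, separated 0.1 µg/L from DMSO. The ier2a level alone was already below every DMSO pool at both concentrations, so this ratio is no independent observation. The share over all gene pairs was not computed. The number of npas4a reads per ier2a read was 1.97, 2.39 and 1.87 at 10 µg/L, against 0.947, 1.33 and 1.15 in DMSO, and the 0.1 µg/L pools (1.56, 1.27 and 1.77) overlapped the controls. The paralog ratio, ier2b reads per ier2a read, averaged 0.740 ± 0.054 at 10 µg/L, 0.882 ± 0.284 at 0.1 µg/L and 0.770 ± 0.118 in DMSO (SD, n = 3 each), with overlap throughout.

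**Figure D3:**
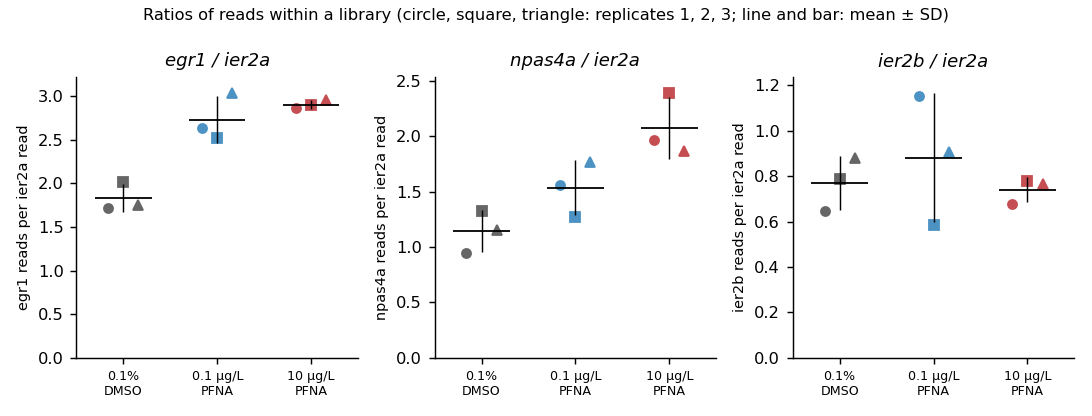
Reads of egr1, npas4a and ier2b per read of ier2a (linear axis from 0) in DMSO pools and in pools at 0.1 and 10 µg/L PFNA. Points are libraries, with the group mean and 1 SD; the egr1 ratio is above 2.5 in all 6 exposed pools and at most 2.02 in the DMSO pools.

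By the median over the 9 genes, pools of a group differed more in the members than in a typical gene, but not for every member. The median SD of log2 levels within a group was 0.66 for the 9 genes at 0.1 µg/L, against 0.26 for all genes. It was 0.23 against 0.20 at 10 µg/L, and 0.44 against 0.31 in DMSO. Single members ran from 0.18 (egr3) to 0.92 (fosb) at 0.1 µg/L and from 0.12 (egr1) to 0.48 (fosb) at 10 µg/L. In DMSO they ran from 0.23 (ier2a) to 1.04 (fosl1a). In each group the lowest member was thus below the median of all genes. Genes of similar read number were not compared. At 0.1 µg/L, replicate 2 was the lowest of all 9 libraries for 6 genes (fosab, fosb, egr1, ier2a, ier2b and npas4a). In DMSO, replicate 1 was the lowest control for 8 of the 9 genes and replicate 3 the highest for 6, and at 10 µg/L replicate 2 was the highest for 7. The fosaa and egr3 transcripts differed, with their highest level among the 0.1 µg/L pools in replicate 2. At 10 µg/L the lowest pool was replicate 3 for 5 genes and replicate 1 for 4. The same orders were not counted over all genes, and DMSO replicate 3 and 0.1 µg/L replicate 2 also lay apart from their groups on component 1.

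As a description over the 9 libraries, which share group and depth differences, fosab followed the mean of the other members most closely (Pearson r = 0.97), ahead of npas4a and egr1 (both 0.84), ier2b (0.75), ier2a (0.67) and egr3 (0.49). The fosb, fosaa and fosl1a profiles showed little relation to it (0.11, 0.08 and -0.05). Among 13957 other genes with a mean of at least 50, the closest to the mean profile of the members were lman2 (r = 0.95), junbb (0.93), arl5c (0.92), adamts1 (0.92) and cacna1db (0.91). Of these, junbb encodes a JunB protein, an AP-1 partner of Fos proteins.

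Related genes were counted in lists chosen by their roles. Of 10 AP-1 partners tested at 10 µg/L, 0 were higher and 2 lower at an unadjusted p under 0.05, where 7.91% of all genes were higher and 5.21% lower. These were jund, with 483 ± 4.09 normalized counts at 10 µg/L and 699 ± 76.2 in DMSO (log2 fold change -0.53), and jdp2b, a repressor of AP-1 in mammals (log2 fold change -0.54). Of 45 other immediate early genes, 3 were higher and 5 lower, against the same shares of all genes. The nuclear receptor gene nr4a2a averaged 74.3 ± 4.25 at 10 µg/L and 26.4 ± 7.93 in DMSO (SD, n = 3 each, limma adjusted p = 0.224), and bdnf, which encodes a neurotrophin, averaged 806 ± 13.3 at 10 µg/L and 1396 ± 438 in DMSO (log2 fold change -0.74). At 0.1 µg/L, 0 genes of either list passed in either direction.

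Among upstream regulators, 3 of 37 were higher at 10 µg/L than in DMSO and 0 lower, a share of higher genes close to the 7.91% of all genes. They included mapk3, which encodes an ERK kinase (log2 fold change 0.40). Among 19 feedback genes, whose products restrain the cascade or degrade its messages, 5 were higher and 1 lower at 10 µg/L, against the 7.91% and 5.21% of all genes. The higher ones included the phosphatase genes dusp8a and dusp4 (log2 fold changes 1.32 and 0.58), spry4 (0.63) and zfp36l1a (1.61). The dusp8a pools overlapped those of DMSO, while those of dusp4, spry4 and zfp36l1a did not. At 0.1 µg/L, 0 of 36 upstream regulators passed and 1 of 18 feedback genes did, against 1.57% of all genes. This was dusp1, with 591 ± 80.8 at 0.1 µg/L and 1042 ± 499 in DMSO (log2 fold change -0.72, limma adjusted p = 0.9999) and overlapping pools. The dusp1 gene, itself induced by growth factors, was also higher at 10 than at 0.1 µg/L (log2 fold change 0.85, limma adjusted p = 0.0767). At an unadjusted p under 0.05 in that comparison, 7 of 18 feedback genes were higher and 2 lower. Of 36 upstream regulators, 10 were higher and 1 lower. Of 45 other immediate early genes, 7 were higher and 3 lower (median log2 fold change -0.01), and 0 of 10 AP-1 partners passed. Of all genes, 14.2% passed as higher and 11.5% as lower. No gene of these lists had an adjusted p under 0.05 by limma, where 0 of all genes did in any of the comparisons.

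**Figure D4:**
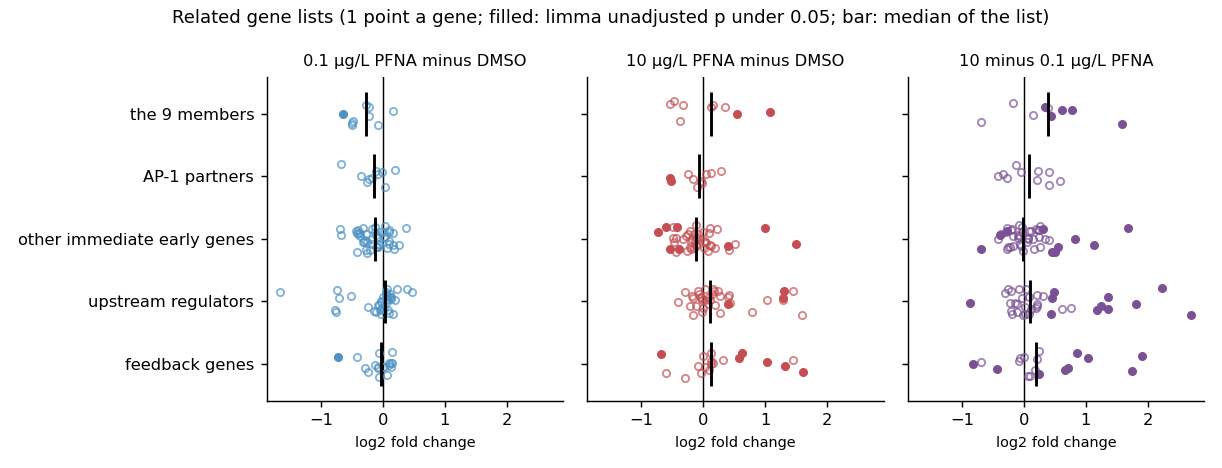
Log2 fold changes (horizontal axis) of the 9 members and of 4 related lists in the 3 comparisons, 1 point a gene. Filled points have an unadjusted p under 0.05 by limma and vertical bars are list medians; the median of the members is -0.27, 0.12 and 0.39 in the 3 panels.

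Genes of stress and daily rhythm were counted as well. Of 18 heat shock genes, 17 were lower at 10 µg/L than in DMSO, 8 of them with an unadjusted p under 0.05, where 5.21% of all genes were lower. Among them, hsp70.2 averaged 76.5 ± 6.36 at 10 µg/L and 147 ± 31.3 in DMSO. Of 14 glucocorticoid response genes, 6 were lower and 0 higher at 10 µg/L at an unadjusted p under 0.05, where 5.21% of all genes were lower and 7.91% higher. Of 34 clock genes, 8 were higher and 4 lower at 10 µg/L, where 7.91% of all genes were higher and 13.1% passed in either direction, with log2 fold changes of 1.84 for tefb and -0.79 for rorcb. At 0.1 µg/L, 2 heat shock genes and 1 clock gene were lower, where 0.813% of all genes were, and 0 genes of the 3 lists were higher. The time of day of sampling is not given in the sources used here. The part of these differences in the levels of fosaa, egr1 and npas4a was not tested.

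Marker lists of 11 cell types had no gene at 0 in any library. The ranges of their summed levels at 10 µg/L overlapped those of the DMSO pools for all 11 lists, and so did those at 0.1 µg/L. Between 10 and 0.1 µg/L the neuronal sums were the only ones of the 11 that did not overlap. The margin was narrow, with 57228 normalized counts in the highest 10 µg/L pool and 58170 in 0.1 µg/L replicate 2. The lowest neuronal sum of any library was that of DMSO replicate 3 (43993). Every library with a positive score on component 1 had a lower neuronal sum than every other library, and the part of component 1 was not tested. At 0.1 µg/L against DMSO, all 16 photoreceptor and all 10 lens markers had positive log2 fold changes, 3 of each with an unadjusted p under 0.05, where 0.755% of all genes passed as higher. Other lists were also one-sided there, with all 14 neuronal markers positive and all 12 exocrine pancreas and all 13 myeloid markers negative. In these lists 0 genes had an unadjusted p under 0.05 by limma. In the GRCz12tu assembly, 20 protein-coding genes lie next to the 10 members. Of the 15 that could be tested at 10 µg/L, 1 had an unadjusted p under 0.05, cacna1ab, a calcium channel gene next to ier2b (log2 fold change -0.85, limma adjusted p = 0.260), where 13.1% of all genes passed. Between the concentrations, 3 of 15 passed, all lower and with overlapping pools, where 25.7% of all genes passed.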

How the data were processed

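RNA-seq libraries of 9 pools of larvae were analysed. Per the labels and methods, the authors trimmed reads with Trimmomatic 0.36, mapped them with STAR 2.5.2b to GRCz10 and counted unique exonic reads with featureCounts (Subread 1.5.2). The deposited signal of a gene is its read count divided by a DESeq2 size factor, fitted over the 6 libraries of each of 2 tables. The tables also hold the authors' log2 fold changes and p-values of their DESeq2 Wald test, which were not used. Reads were recovered as whole multiples of the value of 1 read (100% of values within 0.01 reads), and the DMSO reads of genes in both tables were identical. Exposed and DMSO libraries of the same table were compared by limma 3.58.1 with a trend (R 4.3.3) on log2(value + 1), for genes with a mean of at least 10, with Benjamini-Hochberg adjustment over all genes tested. Concentrations were compared on reads scaled together by the median of ratios. Alternatives were other pseudocounts, minimum means, scalings and models, edgeR 4.0.16, DESeq2 1.42.0, a replicate block, the first index and leaving out each library. An exact permutation test of 3 against 3 cannot give p below 0.1. Scripts were tested on simulated data. The members and lists were chosen with earlier results of these data known. All members were named, and at most 5 genes from each other list, those with the smallest p. Neighbouring genes were taken from RefSeq GRCz12tu. Comparisons with DMSO share their controls.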

Additional observations from a re-analysis of the deposited data

Results flagged for a closer look

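The fosaa transcript was flagged because its pools lay on opposite sides of the DMSO mean at the 2 concentrations. The share of all genes with this pattern was not computed. All 3 pools at 10 µg/L were above the mean of the DMSO pools and all 3 pools at 0.1 µg/L were below it, with all libraries scaled together. The mean of the DMSO pools rests on DMSO replicate 3, which had 65.4 normalized counts where the other DMSO pools had 25.8 and 29.9, so that the 0.1 µg/L pools (14.3, 37.5 and 31.9) overlapped the controls. Without DMSO replicate 3 the log2 fold change at 0.1 µg/L was -0.09 in place of -0.49. The difference between the concentrations was itself tested, with a log2 fold change of 1.59 for 10 against 0.1 µg/L (limma adjusted p = 0.0767). The fosaa level was higher in 3 of 3 pools at 10 µg/L than in any pool at 0.1 µg/L, as held for 14.9% of all genes. The difference did not pass the adjusted threshold by limma, which no gene passed in this comparison.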

How the results depend on the processing

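Of the member values under single alternatives, 454 kept their direction and their side of the adjusted threshold, 7 passed it and 15 turned sign, and of the summary values 144 stayed near their main value and 15 moved. Apart from leaving out libraries, the sign turned for fosl1a at 0.1 µg/L (-0.016 by edgeR) and for fosab at 10 µg/L (-0.32 when the first index was a covariate). Limma without a trend gave 1 member at an unadjusted p under 0.05 at 10 µg/L, where 11.7% of all genes passed. It gave 3 between the concentrations, where 21.9% of all genes passed. With all 9 libraries in one model, 3 members passed between the concentrations, where 19.5% of all genes did. The median log2 fold change at 10 µg/L was -0.17 with the first index. Between the concentrations, 2 members had an adjusted p under 0.05 by DESeq2, where 8.84% of all genes did. For these changes the cause was not tested.

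Replicate numbers here are those of the sample titles, and deviations of pools with the same number correlated between -0.359 and 0.277 over the comparisons. The sample descriptions number some pools otherwise, and a pairing by those numbers was not tested. With the replicate block, 1 member, fosaa, had an adjusted p under 0.05 between the concentrations, where 740 of 18965 genes did, and the block changed no other such call.

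Leaving out each library in turn, the log2 fold changes against DMSO at 0.1 µg/L ran from -0.24 to 0.75 for fosl1a, from -0.56 to 0.25 for fosb and from -0.20 to 0.053 for egr1. At 10 µg/L they ran from -0.11 to 0.33 for fosab, from -0.042 to 0.29 for egr3 and from -0.94 to 0.045 for fosl1a. Between the concentrations they ran from -0.71 to 0.11 for fosb and from -0.20 to 0.48 for ier2b. The count at an unadjusted p under 0.05 ran from 1 to 2 at 0.1 µg/L (2 without 0.1 µg/L replicate 1), where 0.587% to 4.47% of all genes passed. At 10 µg/L it ran from 0 to 3 (0 without 10 µg/L replicate 2, 1 without DMSO replicate 2), where 6.64% to 26.9% of all genes passed. Between the concentrations it ran from 3 to 6 (3 without 10 µg/L replicate 2 or 3 or 0.1 µg/L replicate 3), where 15.2% to 39.1% of all genes passed. The count at an adjusted p ran from 0 to 1 at 10 µg/L (fosaa, without DMSO replicate 3, where 11.2% of all genes passed) and from 0 to 3 between the concentrations (fosaa, fosl1a and npas4a, without 0.1 µg/L replicate 2, where 27.0% passed). The median log2 fold change at 10 µg/L ran from -0.11, without DMSO replicate 1, to 0.22. With 3 pools a group, intervals of the low-count genes fosaa, fosb and fosl1a spanned over 1 log2 unit, so moderate differences were not detectable in them. Some intervals of genes with more reads were as wide, such as those of fosab (-1.21 to 0.26) and ier2b (-1.25 to 0.25) at 0.1 µg/L, and the same limit holds there.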
